A study of Homo sapiens with 6 samples.

Results

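The luminal and hormone receptor genes ESR1, PGR, FOXA1, GATA3, TFF1, XBP1, SPDEF, ELF5 and TFAP2A were followed by ATAC-seq in MDA-MB-231 cells, an established human triple-negative breast cancer line that by definition lacks the estrogen and progesterone receptors. These 9 members were taken by name from 20176 protein-coding genes. ATAC-seq uses a transposase that inserts adapters into open DNA, and each library was available as a list of peak summits. Parental cells gave 3 libraries, and so did SAP30-KO1 cells, a line whose gene for SAP30 had been disrupted with CRISPR/Cas9. SAP30 belongs to the SIN3 corepressor complex, and summit lists do not show its loss. The knockout line was a mixture grown from several selected knockout cells, the controls were labelled parental with no control guide named, and both were kept in the same serum-containing medium with no labelled treatment. Nothing in the labels says whether replicates were separate cultures, so p-values measure the spread between these libraries, which may be technical. The lists held 29762 to 40650 summits, the longest being SAP30-KO1 replicate 2, and they hold no read counts, so the depth is unknown.

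In the luminal lineage of the breast, estrogen receptor alpha, encoded by ESR1, works with the forkhead factor FOXA1, which opens chromatin for it, and with the zinc finger factor GATA3. PGR, the progesterone receptor, and TFF1, a secreted trefoil peptide, are classic estrogen targets. XBP1 is a bZIP factor of the unfolded protein response, SPDEF and ELF5 are epithelial ETS factors, and TFAP2A encodes the AP-2 alpha factor.

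Summits were taken from 50 kb upstream of each gene to its end, and those of the 6 libraries were merged into 33 sites, numbered along each gene in its own direction. A promoter summit lay within 1 kb of any annotated start site. The level is the percentile rank of a summit's score within its own library, from 0, for no summit, to 100. Groups are said to have ranks apart where every SAP30-KO1 library was above, or every one below, all parental libraries, and a site found in all 6 libraries is called constant. The sequences below are the strongest site found in all 6 libraries for each member that had such a site, and 4 of the 5 sites at which the ranks of both groups did not overlap. They are 201 bases around the median summit, on the plus strand of GRCh37. Capitals mark letters of the motifs searched on both strands, which are TGANTCA for AP-1, GGTCA and TGACC with 3 bases between them for the estrogen response element, TGTTTAC or TGTTTGC for forkhead factors, AGATAA for GATA, GCCNNNGGC for AP-2, AGGAAG for ETS factors and ACANNNTGT for steroid receptors. The ESR1 sites were read from chr6:152222244-152222444 for site 5, chr6:152406814-152407014 for site 8 and chr6:152413100-152413300 for site 10, all in introns. SPDEF site 2 was read from chr6:34514536-34514736, in an intron. GATA3 site 2 was read from chr10:8111496-8111696, across the border of a coding exon and an intron. TFAP2A site 1 was read from chr6:10452325-10452525, upstream of the gene and inside the noncoding gene MIR5689HG.
ESR1 site 5: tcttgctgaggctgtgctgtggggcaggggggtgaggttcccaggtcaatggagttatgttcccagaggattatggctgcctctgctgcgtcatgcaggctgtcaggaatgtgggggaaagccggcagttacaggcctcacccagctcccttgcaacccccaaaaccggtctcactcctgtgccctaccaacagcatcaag
ESR1 site 8: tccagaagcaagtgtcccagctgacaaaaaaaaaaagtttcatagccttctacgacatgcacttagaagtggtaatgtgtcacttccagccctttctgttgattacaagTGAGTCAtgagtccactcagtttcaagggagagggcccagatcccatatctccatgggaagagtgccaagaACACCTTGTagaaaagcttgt
ESR1 site 10: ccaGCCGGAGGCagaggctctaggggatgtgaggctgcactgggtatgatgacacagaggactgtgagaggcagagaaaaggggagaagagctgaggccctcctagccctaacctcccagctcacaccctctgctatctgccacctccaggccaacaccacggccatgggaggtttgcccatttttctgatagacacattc
SPDEF site 2: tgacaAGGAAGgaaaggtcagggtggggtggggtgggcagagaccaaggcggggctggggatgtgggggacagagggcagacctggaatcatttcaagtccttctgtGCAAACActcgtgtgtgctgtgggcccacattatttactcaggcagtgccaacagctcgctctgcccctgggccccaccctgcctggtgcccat
GATA3 site 2: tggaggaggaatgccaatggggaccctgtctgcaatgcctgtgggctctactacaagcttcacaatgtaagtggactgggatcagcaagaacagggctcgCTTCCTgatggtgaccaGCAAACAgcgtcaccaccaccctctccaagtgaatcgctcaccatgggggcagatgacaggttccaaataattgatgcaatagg
TFAP2A site 1: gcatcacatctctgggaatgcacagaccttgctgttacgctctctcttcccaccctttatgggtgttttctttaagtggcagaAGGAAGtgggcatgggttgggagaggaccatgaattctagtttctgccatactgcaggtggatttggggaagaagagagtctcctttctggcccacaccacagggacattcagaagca

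The question of which promoters were closed was addressed first. TFAP2A had a promoter summit in every library, GATA3 in 5 libraries, FOXA1 and XBP1 in 2, ESR1, PGR and TFF1 in 1, and SPDEF and ELF5 in none. Thus 2 of the 9 members were closed by the rule of no promoter summit in any library, against 37.7% of all protein-coding genes, and 1 member was open in every library, against 34.5%. The other 6 lay in between.

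Of the receptors, ESR1 (chromosome 6, 151977826 to 152450754, plus strand) had its only promoter summit in SAP30-KO1 replicate 2, at a rank of 34.1. That summit lay 442 bp from an alternative start site and 3.69 kb upstream of the canonical start, which had no summit within 1 kb in any library. PGR (chromosome 11, 100900355 to 101000544, minus strand) had a promoter summit in parental replicate 2 alone, at a rank of 17.8. It lay 1.37 kb inside the canonical start and was shared with PGR-AS1, the antisense gene. Neither receptor gene had a promoter summit in more than 1 library. Among genes with a promoter summit in a single library the median rank was 16.7, and 30.3% of the 1182 such genes had it in SAP30-KO1 replicate 2, the longest list.

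Among the lineage factors, FOXA1 (chromosome 14, 38058757 to 38065264, minus strand) had no promoter summit in the parental libraries or in SAP30-KO1 replicate 1, and ranks of 19.0 and 71.7 in SAP30-KO1 replicates 2 and 3. Its site lay 0.152 kb inside the canonical start and was shared with a start site of TTC6. In a bulk library of a mixed line, more cells with an open site and more opening per cell cannot be told apart. The groups overlapped at 0 (30.2 ± 37.1 in SAP30-KO1, SD, n = 3, against 0 in parental cells; two-sided exact permutation test, p = 0.4, adjusted p = 1). The FOXA1 difference was 9.49 without SAP30-KO1 replicate 3 and 45.3 without SAP30-KO1 replicate 1. GATA3 (chromosome 10, 8087341 to 8117161, plus strand) had ranks of 0, 10.9 and 32.7 for parental against 1.24, 31.3 and 32.4 for SAP30-KO1 libraries. These low ranks came from a site 9.54 kb upstream of the canonical start and 226 bp from an alternative start. The canonical start had no summit within 1 kb. The difference of 7.11 between the groups was smaller than either SD (14.5 ± 16.6 and 21.6 ± 17.7, SDs of n = 3 libraries, two-sided exact permutation test, p = 0.8, adjusted p = 1). SPDEF (chromosome 6, 34505579 to 34524110, minus strand) and ELF5 (chromosome 11, 34500338 to 34546740, minus strand) had no promoter summit at any of their 2 and 6 distinct start sites.

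TFAP2A (chromosome 6, 10393419 to 10419892, minus strand) stood apart from the other members. Its promoter ranks were 94.6, 87.8 and 95.0 for parental against 78.5, 89.0 and 92.3 for SAP30-KO1 libraries. The groups overlapped (92.5 ± 4.05 and 86.6 ± 7.18, SDs of n = 3 libraries; by a two-sided exact permutation test p = 0.3, adjusted p = 1). The mean over the 6 libraries, 89.5, was above that of 89.6% of the genes with any promoter summit and above the upper quartile, 85.8, of genes open in every library. This signal was at a site 10.8 kb inside the canonical start, 275 bp from an alternative start site and within 1 kb of a start site of TFAP2A-AS2. The promoter rank takes the strongest summit over all start sites of a gene, and TFAP2A has 18 distinct ones. The part of that number in the rank was not tested. A further promoter site, site 6, lay 2.41 kb inside the canonical start and ranked at 82.3, 72.2 and 78.0 for parental against 46.4, 80.3 and 49.0 for SAP30-KO1 libraries, with overlapping ranges. The canonical start itself had no summit within 1 kb.

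For the estrogen-linked genes, TFF1 (chromosome 21, 43782391 to 43786644, minus strand) had a promoter summit of rank 37.9 in parental replicate 1 and none elsewhere. XBP1 (chromosome 22, 29190543 to 29196585, minus strand) had ranks of 12.4 in parental replicate 1 and 33.6 in SAP30-KO1 replicate 2. XBP1 is transcribed in most cell types, yet 4 libraries had no summit at its start sites. Both genes gave p = 1 (two-sided exact permutation test with n = 3 per group, adjusted p = 1).

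**Figure D1:**
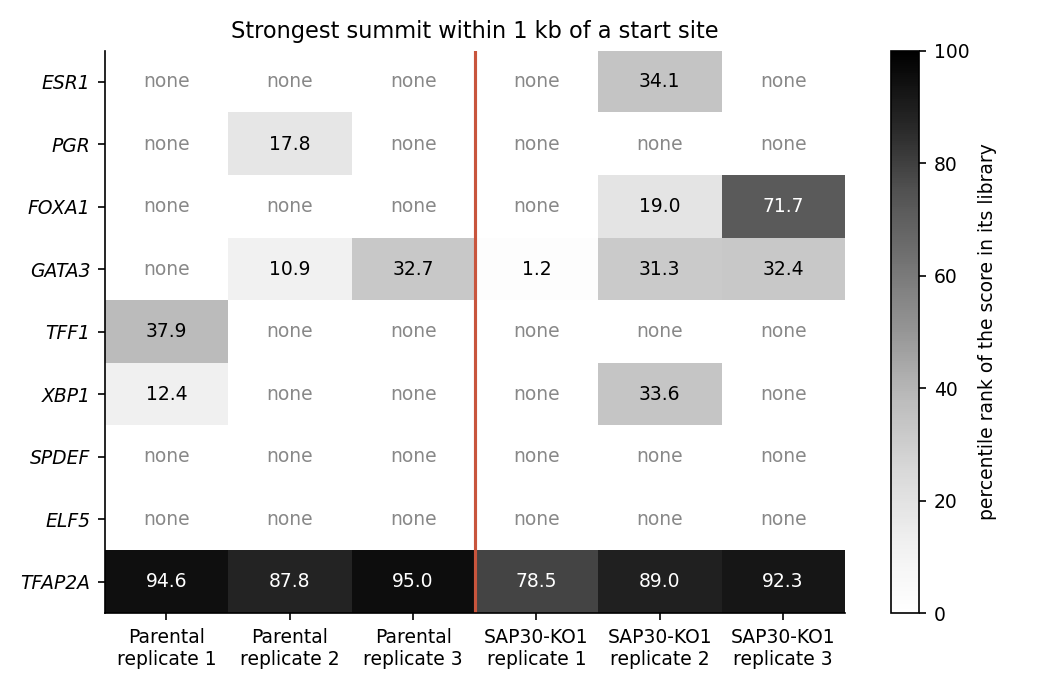
Percentile rank of the strongest promoter summit of each member (rows) in each library (columns), with darker cells for higher ranks and "none" where no summit lay within 1 kb of a start site. TFAP2A was dark in all 6 libraries, between 78.5 and 95.0, GATA3 had low ranks in 5, and the other members had a summit in at most 2.

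No member had promoter ranks apart between parental and SAP30-KO1 cells, where 10.6% of the 12572 genes with a promoter summit had them, 4.57% lower and 6.01% higher in SAP30-KO1. With 3 libraries per group the smallest possible p was 0.1, and the smallest adjusted p over these genes was 0.945, so no gene could be called. The number of members with a promoter summit was 3, 3 and 2 for parental replicates against 2, 5 and 3 for SAP30-KO1 replicates. The 5 members were in the longest list. The part of list length in this count was not tested.

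A missing summit does not by itself show closed chromatin. Of 14 reference genes that most cells transcribe, a list added after the members' values were seen, 8 had a promoter summit in all 6 libraries and the other 6 in some of them. ACTB and GAPDH had one in 2 libraries each and GUSB in 1. XBP1 and FOXA1 were thus called in as many libraries as ACTB. Markers of blood and endothelial cells were at 0 throughout, with no promoter summit for any of the 5 genes placed in the annotation, PTPRC of blood and CDH5 of endothelium among them, and PECAM1 was not placed.

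The line was checked against markers of mesenchymal and basal breast cancer. Of 10 such genes, 7 had a promoter summit in every library, against 34.5% of all protein-coding genes, and none was without one in all of them. The other 3 had one in some libraries only, with low mean ranks between 13.2 and 18.6. The genes named next are those with the highest mean ranks. TGFBI, a matrix protein gene, had the highest mean rank, 95.8, followed by CAV1 of caveolae, at 84.8. TGFBI was the only one of the 10 with ranks apart, where 10.6% of the 12572 genes with a promoter summit had them, 4.57% lower in SAP30-KO1. Its ranks were 98.1 ± 0.886 for parental against 93.5 ± 1.29 for SAP30-KO1 libraries (SDs of n = 3 libraries, two-sided exact permutation test, p = 0.1, adjusted p = 0.945). Any gene with ranks apart has this p, the smallest possible with 3 libraries per group. MSN, which encodes the membrane-cytoskeleton linker moesin, and EGFR, the growth factor receptor gene, had mean ranks of 75.6 and 70.1. The summed rank of the list was 509 to 538 in parental and 471 to 591 in SAP30-KO1 libraries.

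Few genes of the wider luminal program were open in every library. Of 18 other luminal or estrogen target genes, 3 (16.7%) were open in every library, against 34.5% of all protein-coding genes. They were BCL2, the apoptosis inhibitor, PRLR, the prolactin receptor, and NAT1. Another 8 were open in some libraries and 7 (38.9%) in none, close to the 37.7% of all protein-coding genes. The 7 were AGR3, TFF3, MLPH, MYB, TBX3, KRT19 and CDH1, the last encoding E-cadherin. PRLR ranked at 59.2 ± 7.51 for parental against 79.0 ± 11.1 for SAP30-KO1 libraries with overlapping ranges (SDs of n = 3 libraries; by a two-sided exact permutation test p = 0.2, adjusted p = 1). The canonical start of PRLR had no summit within 1 kb in any library. No gene of this list had ranks apart. The summed rank of the list was 237 to 423 in parental and 254 to 442 in SAP30-KO1 libraries. The median of the mean promoter ranks was 6.88 for this list and 6.32 for the 9 members, against 56.3 for the mesenchymal and basal markers.

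Of 4 other steroid receptor genes, 3 were open in every library, against 34.5% of all protein-coding genes. NR3C2, the mineralocorticoid receptor, ranked between 87.2 and 97.5, and ESR2, estrogen receptor beta, between 69.0 and 95.8. The canonical start of ESR2 had a summit within 1 kb in 3 libraries only. NR3C1, the glucocorticoid receptor, ranked between 20.2 and 62.1. Of 7 genes for estrogen receptor cofactors, 4 were open in every library (NCOA1, NCOA3, NRIP1 and CREBBP). Of 9 paralogs of member factors, FOXA3 alone was open in every library, and GATA1, TFAP2B and ELF3 in none. At the canonical start, FOXA3 had no summit within 1 kb in any library, and CREBBP had one in 1 library. None of these 3 lists had a gene with ranks apart.

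**Figure D2:**
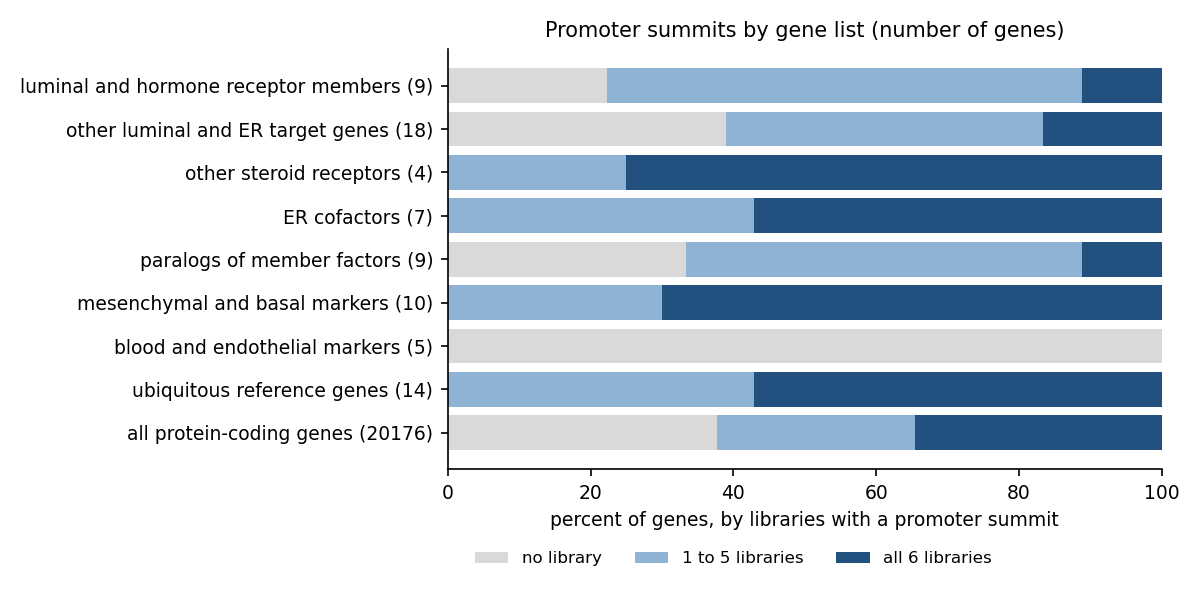
Percent of the genes of each list (number of genes in brackets) with a promoter summit in no library, in 1 to 5 libraries or in all 6 libraries. All 6 libraries had one for 1 of 9 members, 3 of 18 other luminal genes, 7 of 10 mesenchymal and basal markers and 34.5% of all protein-coding genes.

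Next, the sites away from promoters were examined. Of the 33 sites around the members, 9 were at a member's promoter, 13 in introns, 1 in an exon and 10 upstream. Sites found in all 6 libraries numbered 12 (36.4%, against 28.9% of all 56419 sites of the series), and 10 of these 12 lay outside the members' promoters. They belonged to 3 members, with 6 at ESR1, 5 at TFAP2A and 1 at GATA3. The windows differ in length from 54.3 kb for TFF1 to 522.9 kb for ESR1. Per 100 kb, TFAP2A had 9.15 sites, more than 97.8% of protein-coding genes, and ESR1 had 2.29, below the median of 2.71. ELF5 had 1.04, the lowest of the 9.

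The windows of the 9 members together held 20, 21 and 24 summits in parental and 21, 28 and 19 in SAP30-KO1 libraries (21.7 ± 2.08 and 22.7 ± 4.73, SD, n = 3). The difference of 1 was below the replicate spread and became -1.67 without SAP30-KO1 replicate 2. ESR1 held 6, 9 and 10 summits for parental against 9, 11 and 9 for SAP30-KO1 libraries (two-sided exact permutation test with n = 3 per group, p = 0.6). TFAP2A held 7, 7 and 5 against 7, 6 and 6 summits (two-sided exact permutation test with n = 3 per group, p = 1). No member had numbers apart between the groups, where 3.78% of the 17677 genes with a summit in the window had.

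ESR1 carried strong sites far from its canonical promoter. Site 1, 138.6 kb upstream of the canonical start and in an intron of longer transcripts, ranked at 84.4, 85.4 and 92.3 for parental against 92.1, 85.5 and 81.0 for SAP30-KO1 libraries. Site 3, 43.4 kb upstream of that start, ranked at 99.1, 60.0 and 93.8 for parental against 79.6, 99.7 and 91.9 for SAP30-KO1 libraries. Both were at 60.0 or above in every library, with overlapping groups. The summits of site 3 spread over 902 bases, with 3 of them in parental replicate 3, so its ranks need not come from the same bases. Near the end of the gene, site 11 in an intron had mean ranks of 73.6 ± 16.7 for parental against 75.3 ± 13.5 for SAP30-KO1 libraries, and site 12, in the untranslated part of an exon, had 83.7 ± 17.7 and 78.7 ± 4.14 (SD, n = 3). Thus 4 of the 6 constant ESR1 sites overlapped between the groups.

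The other constant sites, 2 and 5, did not. Site 5, 93.5 kb into the gene, ranked at 84.9, 83.9 and 66.0 for parental against 99.4, 99.3 and 99.0 for SAP30-KO1 libraries. All SAP30-KO1 libraries had it among their strongest summits, and all parental libraries ranked it lower. Its score, the −log10 of the q value, was 11.1, 11.1 and 7.09 for parental against 25.1, 29.6 and 24.8 for SAP30-KO1 libraries. The rank rose by a mean of 21.0, and 8.54% of the 16314 sites found in all libraries had a larger shift upward. None of the searched motifs is in its printed window. Site 2, in an intron upstream of the canonical start, ranked at 82.5, 68.7 and 61.1 for parental against 43.1, 60.6 and 49.8 for SAP30-KO1 libraries, a difference of -19.6 with 61.1 and 60.6 as the nearest ranks of the groups. Its summits spread over 333 bases, and with windows of 100 bp in place of 250 bp around each summit the site split and the part at the median summit differed by 23.7, in the opposite direction.

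Sites 8 and 10 of ESR1 had a summit in the SAP30-KO1 libraries only. Site 8, 278.1 kb into the gene, was absent from the parental libraries and ranked at 36.9, 18.7 and 9.16 in SAP30-KO1 cells. With equal list lengths its groups overlapped and the mean difference went from 21.6 to 12.3, and without SAP30-KO1 replicate 1 it was 13.9. Site 10, 284.4 kb into the gene, was absent from the parental libraries and ranked at 18.4, 82.5 and 60.2 in SAP30-KO1 cells. The other ESR1 sites outside the promoter were found in 3 libraries each with overlapping groups, and ranked at most at 84.1 (site 6, in SAP30-KO1 replicate 1), 31.9 (site 7, in SAP30-KO1 replicate 3) and 12.1 (site 9, in parental replicate 2). Over the series, 1.43% of sites had a summit in all SAP30-KO1 and no parental libraries. Sites 8 and 10 were in introns of a stretch that also held sites 9, 11 and 12. Site 10 overlapped the noncoding gene ENSG00000287914. Site 8 holds an AP-1 and a steroid receptor motif and site 10 an AP-2 motif, as the capitals above show.

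**Figure D3:**
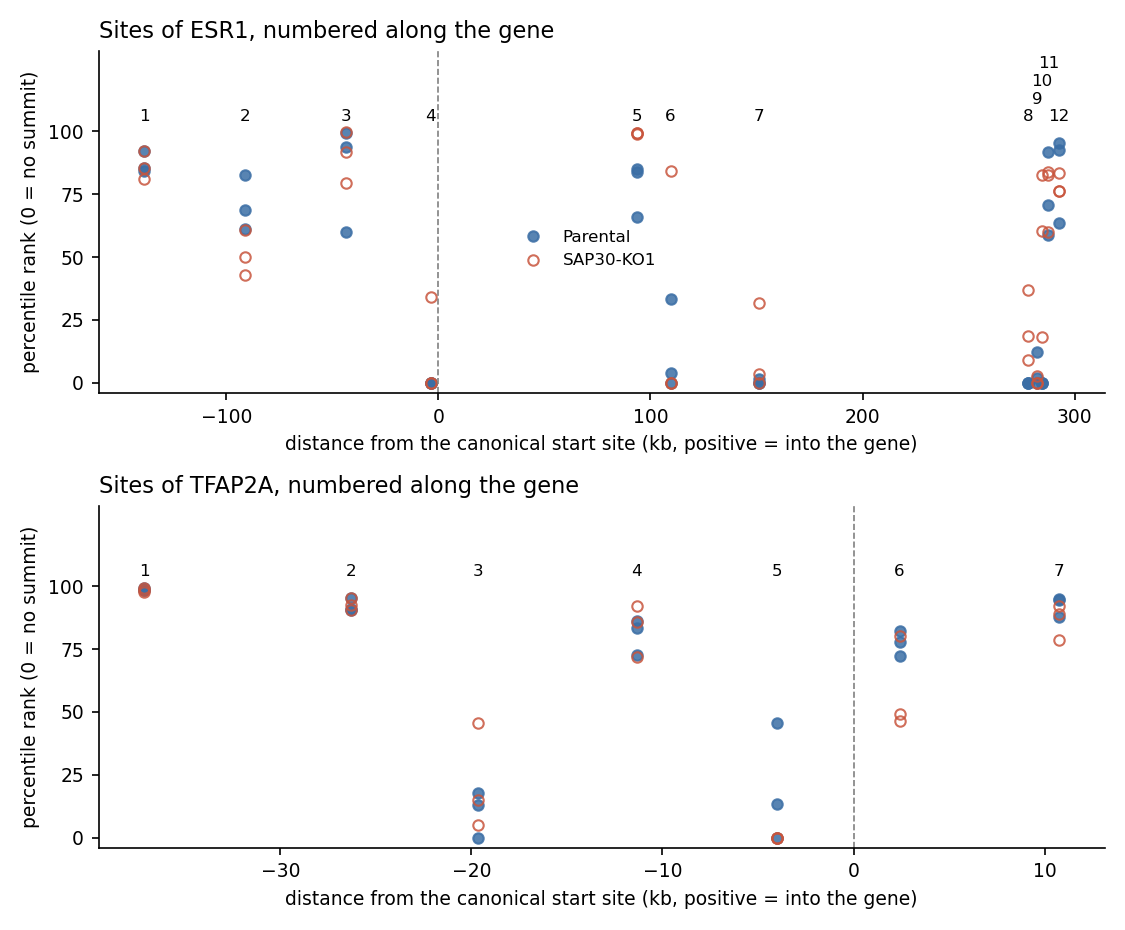
Percentile rank of each site of ESR1 (top) and TFAP2A (bottom) in each library against the distance from the canonical start site in kb, with filled circles for parental and open circles for SAP30-KO1 libraries, and the site number above. ESR1 sites 1 to 3, 5, 11 and 12 and TFAP2A sites 1, 2, 4, 6 and 7 had a summit in all 6 libraries, while the canonical starts, at the dashed lines, had none within 1 kb.

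Among the 12 constant sites, the parental SD was smallest at TFAP2A site 1, followed by site 2. Ranks end at 100, which leaves less room for spread at sites ranked this high. The scores of site 1 were 23.2, 26.7 and 21.1 for parental against 20.4, 28.5 and 20.9 for SAP30-KO1 libraries. Site 1, 37.1 kb upstream of the canonical start, ranked at 98.6, 99.4 and 98.4 for parental against 98.3, 99.1 and 97.8 for SAP30-KO1 libraries, the highest mean among the 33 sites (98.6). Site 2, 26.3 kb upstream, ranked at 92.2 ± 2.81 for parental against 92.7 ± 2.45 for SAP30-KO1 libraries (SD, n = 3). Both had overlapping groups and smaller SDs than site 4, 11.4 kb upstream, with 80.8 ± 7.21 and 83.3 ± 10.4. Sites 1 and 2 lay in MIR5689HG, a noncoding gene, and site 4 lay at start sites of 2 other genes. Site 3, 19.6 kb upstream and at start sites of LINC00518 and MIR5689HG, ranked at 13.0, 17.9 and 0 for parental against 5.24, 45.6 and 14.8 for SAP30-KO1 libraries. Site 5 lay 4.02 kb upstream of the canonical start and 457 bp from an alternative start site. It ranked at 45.8 and 13.5 in parental replicates 1 and 2 and had no summit in the other 4 libraries.

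Away from its promoter, GATA3 had site 2, 14.9 kb into the gene, with ranks of 82.8, 53.8 and 69.2 for parental against 84.7, 71.1 and 76.7 for SAP30-KO1 libraries. The groups overlapped at this site. With windows of 100 bp it split, and the part at the median summit differed by -62.8, so no direction is given for it. SPDEF, without a promoter summit, had site 2 in an intron 9.47 kb into the gene. Its ranks were 65.1, 59.3 and 53.5 for parental against 0, 3.66 and 0 for SAP30-KO1 libraries, so each parental library was above each SAP30-KO1 library by a wide margin. The mean fell by 58.1 rank points, and 0.211% of all sites had a larger shift downward. The other SPDEF site, 4.44 kb upstream, was in 5 libraries and ranked at 67.4, 72.3 and 41.8 for parental against 69.1, 76.1 and 0 for SAP30-KO1 libraries, with overlapping groups.

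ELF5 had a single site, 57.0 kb upstream of its canonical start and at a start site of LINC02707. It ranked at 58.4, 0 and 15.2 for parental against 50.9, 75.7 and 67.3 for SAP30-KO1 libraries. The lowest SAP30-KO1 rank was below the highest parental rank. The 3 sites of FOXA1, 3 of PGR and 2 of TFF1 were each in at most 3 libraries, and outside promoters none ranked above 37.6. PGR lies on the long arm of chromosome 11, where the median shift from parental to SAP30-KO1 was -14.7 over 454 sites found in all libraries, against 0.171 over all such sites. The part of that shift in the PGR ranks was not tested. On the arms of ESR1 and SPDEF the median shifts were 1.38 and -1.86.

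In all, 5 of the 33 sites had ranks apart, against 10.1% of all sites, 2 of them lower in SAP30-KO1 (background 4.26%) and 3 higher (background 5.86%). Among the 12 constant sites it was 2, where 15.7% of constant sites in the series had ranks apart. These shares were not tested, and the 5 sites were described because they did not overlap.

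**Figure D4:**
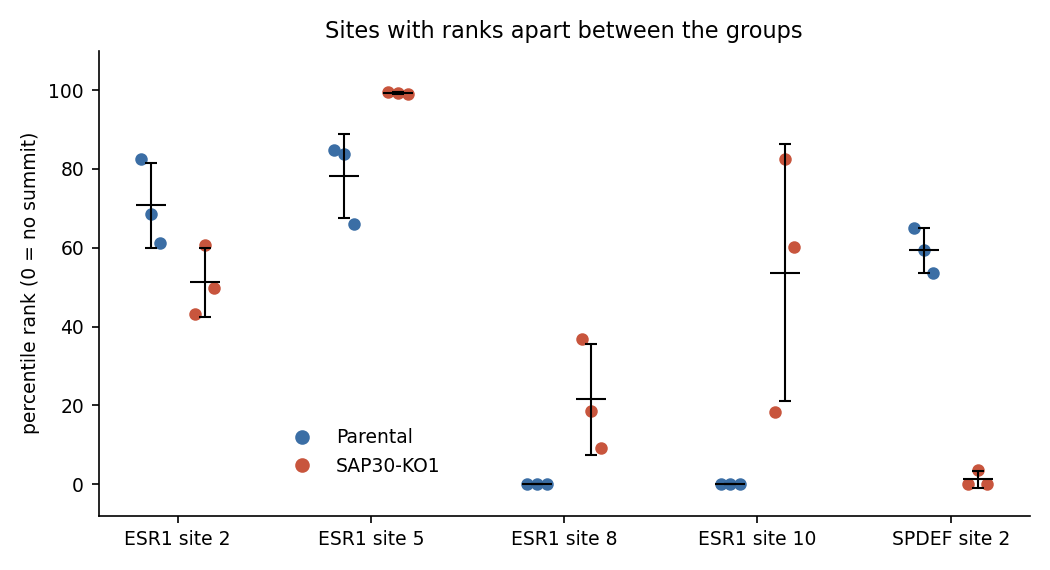
Percentile rank in each library of the 5 sites whose groups did not overlap, with blue points for parental and red points for SAP30-KO1 libraries, and the mean and SD of 3 libraries in black. ESR1 site 5 was at 99.0 or above in SAP30-KO1, ESR1 sites 8 and 10 were at 0 in parental, and SPDEF site 2 was at 3.66 or below in SAP30-KO1 libraries.

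The motif letters were counted in 201 bases around each site. The AP-1 motif was in 8 of the 33 sites (24.2%), close to 22.5% of all sites searched. Of the 12 constant sites 4 held it, namely ESR1 sites 1, 3 and 11 and TFAP2A site 2, where 23.8% of constant sites in the series did. The other sites with it were ESR1 sites 4 and 8, SPDEF site 1 and the single ELF5 site. The estrogen response element was in none, where 0.0390% of all sites held it. Forkhead motifs were in 5 sites (15.2%, against 7.66%), the GATA motif in 5 (15.2%, against 9.12%), the AP-2 motif in 6 (18.2%, against 11.2%), the ETS motif in 11 (33.3%, against 24.8%) and the steroid receptor motif in 3 (9.09%, against 5.40%). Among sites of the series outside promoters the shares were 28.2% for AP-1, 9.22% for forkhead, 11.3% for GATA and 6.76% for AP-2. They were 25.6% for ETS, 6.59% for the steroid receptor motif and 0.0478% for the estrogen response element. GC content ran from 35.8% at ESR1 site 7 to 83.1% at the FOXA1 promoter site. A motif match describes letters only, and no binding was measured here.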

How the data were processed

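ATAC-seq was performed on 3 parental and 3 SAP30-KO1 libraries. The authors trimmed single-end reads with Trim Galore, aligned them to hg19 with bowtie2, removed duplicates with Picard and called peaks per library using MACS2 with q values up to 0.05. Each deposited list gives summits of 1 base with a score taken as the −log10 of the q value, since its lowest values, 1.31 to 1.33, lie just above that of q = 0.05. Transposase offsets, blacklists and mitochondrial reads are not described in the sources used here. The lists hold no read counts, so depth is unknown and no counting interval is given.

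Scores of separately called lists share no scale, and were ranked within their list. Genes and start sites were from GENCODE release 44 mapped to GRCh37, and every chromosome's summits lay inside its GRCh37 length. Summits were extended by 250 bp on each side and merged when they overlapped by at least 1 bp. A site's rank is that of its strongest summit. Differences of group means were tested by exact permutation over the 20 assignments, two-sided, with Benjamini-Hochberg adjustment over all 12572 genes with a promoter summit. Values over the members together, and sites picked for ranks apart, were given no p. Some items, among them a sequence and single genes of the lists, are not reported here. The 9 members and the gene lists were chosen with earlier results of these data known. The sites to be named were at most the 3 strongest per member and those with ranks apart, and from each list at most 4 genes were to be named, by highest rank, ranks apart or absence. More genes and sites are named where a count is spelled out, and these, like ACTB, GAPDH and GUSB, were picked after their values were seen. Alternatives were stricter q values, equal list lengths, other windows, canonical transcripts, ranks within a chromosome arm, a block by replicate number and leaving out each library. Calculations used Python 3.11.15, numpy 2.4.6 and pandas 2.3.3, and were tested on simulated data.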

Additional observations from a re-analysis of the deposited data

How the results depend on the processing

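SPDEF and ELF5 had no promoter summit under any definition tried, but the count of members without one rose from 2 to 4 with promoters of 500 bp and to 6 with canonical start sites alone, where 0 members were open in every library. Leaving out each library in turn gave 2 to 3 members without a promoter summit, and 1 to 2 open in every library, the 2 being without parental replicate 1, which has no GATA3 promoter summit. With fewer libraries both of these counts can only stay or rise, and no share over all genes is given for them. With each library left out, the total of member summits differed by -1.67 to 2.83, with the negative value without SAP30-KO1 replicate 2. Sites with ranks apart ranged from 2 to 4 lower (4 without parental replicate 3 or SAP30-KO1 replicate 2) and 3 to 6 higher in SAP30-KO1 (5 without parental replicate 1, 6 without SAP30-KO1 replicate 1). Because ranks apart compare the extremes of the groups, leaving out a library can only keep or add such sites. No share over all sites is given for these settings. At a q value of 0.0001 or less, chosen after seeing the data, there were 1 lower and 1 higher site, and with scores in place of ranks, also chosen then, 1 lower. Some differences changed sign. GATA3 promoter ranks gave -1.10 with equal list lengths and -0.152 without parental replicate 1 (17.3 without SAP30-KO1 replicate 1), TFAP2A 3.44 with promoters of 500 bp, PGR 1.66 with promoters of 2.5 kb, and XBP1 -4.14 without SAP30-KO1 replicate 2 (12.7 without replicate 1). XBP1 window summits gave 0.333 with equal list lengths, with 100 kb upstream and without parental replicate 1 (-0.667 without parental replicate 2). With summit windows of 100 bp, where both sites split, ESR1 site 2 gave 23.7 and GATA3 site 2 gave -62.8. The ranks of ESR1 site 8 overlapped between groups with equal list lengths (12.3) and under the stricter q of 0.0001 (7.66), and those of ESR1 site 10 under the latter (43.0). The causes of the other changes were not tested. ESR1 site 5 and SPDEF site 2 kept their direction with ranks apart in all 12 settings, of which 6 leave out a library and keep it by construction.

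Same-numbered libraries did not deviate together (correlations of -0.0179, -0.0127 and -0.00320), so the numbers were not taken as pairs. With a replicate block the TFAP2A promoter difference stayed at -5.88 (exact sign flips, p = 0.5, where the smallest possible p is 0.25) and the total at 1, and no call changed. Without read counts, a weak site and a shallow library cannot be told apart.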
